A study of Homo sapiens with 54 samples.

Results

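The 10 genes described here encode parts of the RNA polymerase III machinery, and they were taken by name from the 20037 protein-coding genes of a RefSeq table of GRCh38.p14. They are the polymerase subunit genes POLR3A, POLR3B, POLR3C, POLR3G and POLR3GL, the repressor gene MAF1, and the initiation factor genes BRF1, BRF2, BDP1 and GTF3C1. The question was whether these genes are themselves bound by the progesterone receptor (PR), by Maf1 and by subunits of the polymerase, without and with a progestin. For each gene, every region of a peak list that lay over the gene or within 10 kb of its ends was taken. No measured value was used as a rule to choose the genes, although earlier results of these data were known when they were chosen.

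The cells were T47D, a human breast cancer line that carries the estrogen and progesterone receptors. They were given ethanol, called vehicle here, or R5020, a synthetic progestin, for 1 h, and no genetic change is named in the labels of either group. Chromatin immunoprecipitation followed by sequencing used 8 antibodies, against PR, Maf1, POLR3A, Brf1, POLR3C, POLR3G, POLR3GL and H3K27Ac, an acetylated histone mark of active promoters and enhancers. There were 48 such libraries and 6 input libraries, 3 in each group, and 16 peak lists, 1 for each antibody and treatment. Libraries were grouped by title. Titles and treatment tags disagree for 4 libraries, which have R5020 in the title and ethanol in the tag. They are 2 of the POLR3C libraries (replicates 1 and 2) and the first replicate of both POLR3G and POLR3GL. Treatments of these 3 antibodies were therefore compared by title.

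RNA polymerase III makes transfer RNAs, the 5S ribosomal RNA and other short RNAs that a growing cell needs in quantity. At most of its genes the complex TFIIIC, whose largest subunit is made by GTF3C1, binds the DNA first and brings in TFIIIB, built from the TATA-binding protein, Bdp1 and Brf1 or Brf2. TFIIIB then recruits the polymerase, and Maf1 binds the polymerase and represses it. The genes of these proteins code for proteins, and so are transcribed by RNA polymerase II.

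The lists differed widely in length. The PR list held 6663 regions with vehicle and 173129 with R5020, the Maf1 list 3049 and 22683, the POLR3G list 58424 and 46875, and the H3K27Ac list 88870 and 112543. The lists of the other 4 antibodies held 370 to 1173 regions. Read depth is unknown, because peak lists hold no counts, and with 1 list per antibody and treatment there was no replicate spread and no test of any difference. Fold enrichment and -log10 q are the authors' own values for a region and are compared only within a list. The luminal genes ESR1, PGR, GATA3, FOXA1, KRT8 and KRT18 all had H3K27Ac regions in both lists, and the liver and red cell genes ALB and HBB had 0. The leukocyte genes PTPRC and CD3E had 2 H3K27Ac regions each with vehicle, with best folds of 5.24 and 3.71, and 1 and 0 with R5020. FKBP5, a progestin-induced gene, had 2 PR regions with vehicle and 46 with R5020.

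Promoters are shown for some of the genes whose start was covered by a region described below, with 1 contrast, although most of the regions lay elsewhere. POLR3GL, whose start PR also covered in both lists, is not shown. Each sequence is the 250 bases before a gene start, 5′ to 3′ on the strand of the gene, from RefSeq GRCh38.p14, in which 7 of the 10 genes have an entry. Capitals mark the motifs searched, on both strands: the E-box CACGTG, the steroid receptor half-site TGTTCT, whose other strand reads AGAACA, the pair of half-sites ACANNNTGT, and the full palindrome of AGAACA and TGTTCT with any 3 bases between. POLR3A (chr10:78029516-78029765, minus strand) is shown for its vehicle PR region. POLR3B (chr12:106357498-106357747, plus strand) has the strongest PR region at a start among the subunit genes, and POLR3C (chr1:145823950-145824199, plus strand) has PR at its start with both treatments. BRF1 is shown at its outermost start (chr14:105315590-105315839, minus strand) and at an internal start that carries Maf1 (chr14:105301002-105301251, minus strand). GTF3C1 (chr16:27549914-27550163, minus strand) is the contrast, acetylated at its start but without PR, Maf1 or POLR3G within 1 kb of it.
POLR3A: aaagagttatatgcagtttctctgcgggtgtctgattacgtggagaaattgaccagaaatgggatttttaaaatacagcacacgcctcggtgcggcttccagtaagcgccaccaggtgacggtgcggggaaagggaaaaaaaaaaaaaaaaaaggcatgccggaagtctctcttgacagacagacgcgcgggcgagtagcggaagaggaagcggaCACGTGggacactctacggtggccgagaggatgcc
POLR3B: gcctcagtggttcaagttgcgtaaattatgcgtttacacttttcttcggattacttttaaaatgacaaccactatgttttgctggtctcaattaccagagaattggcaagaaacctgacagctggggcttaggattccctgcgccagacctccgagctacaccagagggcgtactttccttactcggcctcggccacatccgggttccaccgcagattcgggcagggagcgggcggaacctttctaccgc
POLR3C: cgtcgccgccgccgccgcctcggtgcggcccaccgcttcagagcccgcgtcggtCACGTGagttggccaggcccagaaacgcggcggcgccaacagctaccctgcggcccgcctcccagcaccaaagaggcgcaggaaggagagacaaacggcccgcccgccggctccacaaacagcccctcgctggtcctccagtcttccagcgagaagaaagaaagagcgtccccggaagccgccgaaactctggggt
BRF1 outermost start: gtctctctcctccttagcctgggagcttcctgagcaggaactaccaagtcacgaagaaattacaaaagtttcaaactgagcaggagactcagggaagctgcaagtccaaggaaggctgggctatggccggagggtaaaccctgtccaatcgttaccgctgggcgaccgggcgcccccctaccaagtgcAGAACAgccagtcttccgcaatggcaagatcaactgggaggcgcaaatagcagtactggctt
BRF1 internal start: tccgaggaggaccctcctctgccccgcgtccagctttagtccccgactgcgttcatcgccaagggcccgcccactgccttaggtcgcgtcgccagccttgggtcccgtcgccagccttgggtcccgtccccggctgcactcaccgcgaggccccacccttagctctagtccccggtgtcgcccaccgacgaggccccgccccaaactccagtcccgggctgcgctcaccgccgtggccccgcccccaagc
GTF3C1: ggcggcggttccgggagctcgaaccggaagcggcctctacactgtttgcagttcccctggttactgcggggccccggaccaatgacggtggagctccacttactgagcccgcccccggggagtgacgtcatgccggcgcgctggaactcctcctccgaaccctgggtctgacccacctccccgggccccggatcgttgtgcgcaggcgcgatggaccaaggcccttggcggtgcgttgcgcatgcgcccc

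Among the 13 windows of the members 3 held a motif. The E-box stood 35 to 30 bases before the POLR3A start, under the vehicle PR region, and 196 to 191 bases before the first POLR3C start, under the R5020 PR and Maf1 regions. The half-site AGAACA stood 62 to 57 bases before the outermost BRF1 start, under the R5020 PR region. Over all 35116 windows of the table the E-box was found in 6.34%, TGTTCT in 12.4%, ACANNNTGT in 4.61% and the full palindrome in 0.00285%. POLR3B, with the PR region of fold 18.5 over its start, held none of these letters in the window shown. A match is a description of the letters and not of a bound site.

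The antibodies against the polymerase core and Brf1 gave almost no regions at the genes of the machinery. POLR3A, the largest subunit and part of the catalytic centre, had a region at 0 of the 10 genes with vehicle and at 0 with R5020. Over all protein-coding genes the share with such a region was 1.51% and 1.66%. Brf1 also had a region at 0 of 10 in both lists, against 0.838% and 2.6% of all genes. POLR3GL, the subunit isoform found in most adult cells, had 0 in both, against 1.39% and 1.04%. POLR3C, another subunit, had 0 with vehicle, against 2.75%, and 1 with R5020, against 2.87%. With shares this low over all genes, counts of 0 among 10 genes are not a result about these genes.

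The single POLR3C region lay beside MAF1 (chr8:144098147-144098455), 6006 bp from the gene and nearer to its neighbour SHARPIN. It had a fold of 2.6 and a -log10 q of 2.08, low in its list, and 2 of the 3 libraries behind that list carry the conflicting treatment tag. The nearest POLR3A region with vehicle was 56.4 kb away at POLR3GL and 17400 kb away at POLR3G, with a median of 1320 kb over the members and 2400 kb over all genes. The one near POLR3GL had a fold of 41.2 and lay over the transfer RNA gene TRE-CTC1-1, which was also the transfer RNA gene nearest to any member and outside the 10 kb window.

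**Figure D1:**
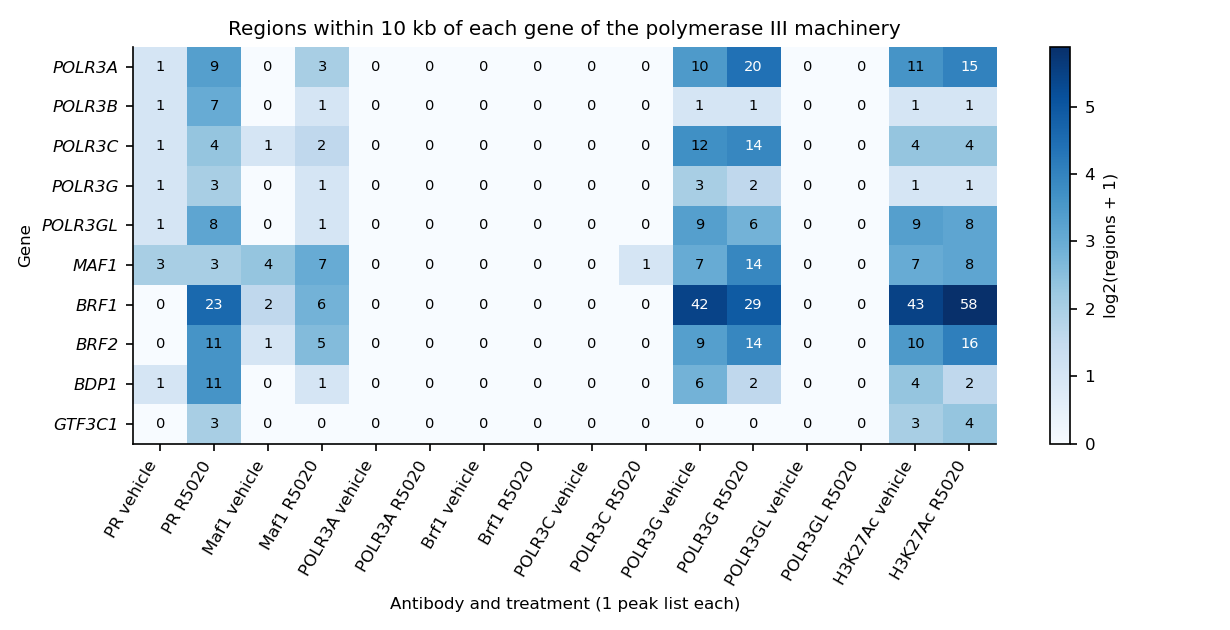
Number of regions within 10 kb of each gene (rows) in each of the 16 peak lists (columns), with the number printed in each cell and shading by log2(regions + 1). PR and Maf1 fill in from vehicle to R5020, POLR3G and H3K27Ac are present with both treatments at 9 and 10 genes, and the POLR3A, Brf1 and POLR3GL columns are 0 throughout.

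PR was present at 7 of the 10 genes with vehicle, against 23.3% of all protein-coding genes, and at 10 of 10 with R5020, against 90.3%. The 3 genes with PR only in the R5020 list were BRF1, BRF2 and GTF3C1, and such a change was seen at 67.0% of all genes. The R5020 count is therefore near what the long list gives any gene. The vehicle regions were few and weak, 9 in all, with folds of 2.62 to 3.91 in a list whose median fold was 4.04. Of these 9 regions, 8 lay within 1 kb of an end of the gene, a share of 88.9%, where PR vehicle regions near any protein-coding gene had 49.1%. With R5020 there were 82 regions with folds of 2.05 to 37.9, and 11 of them, 13.4%, lay within 1 kb of an end of the member itself. Near any protein-coding gene the share was 14.4%. The member shares count a member's own ends alone, whereas the shares near any gene count the ends of every protein-coding gene. Several R5020 regions away from a member's ends lay within 1 kb of an end of a neighbour, so 13.4% and 14.4% are not alike.

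**Figure D2:**
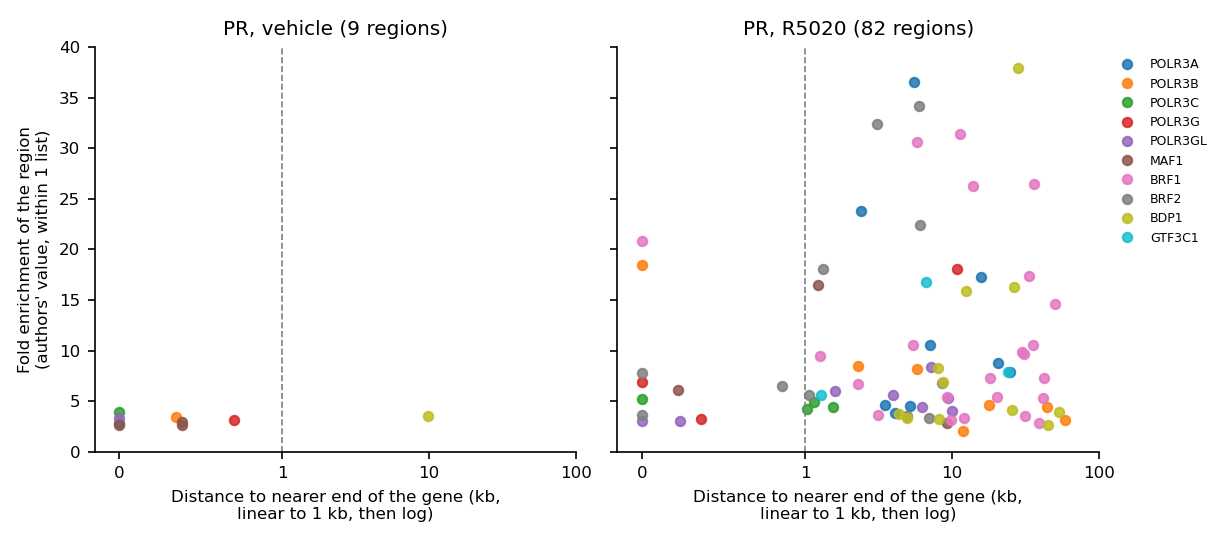
Fold enrichment of each PR region (vertical axis) against its distance to the nearer end of the gene (horizontal axis, kb, linear to 1 kb and logarithmic beyond), with 1 point per region, coloured by gene, for vehicle (left) and R5020 (right). The dashed line marks 1 kb. All 9 vehicle points lie below a fold of 4 and 8 lie left of the line, whereas 71 of the 82 R5020 points lie right of it.

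At the starts of the 7 genes with an entry, PR lay within 1 kb at 4 with vehicle, POLR3A, POLR3B, POLR3C and POLR3GL, against 13.6% of 15843 genes. With R5020 it lay there at 4, POLR3B, POLR3C, POLR3GL and BRF1, against 59.7%. The count at starts was thus the same in both lists, with POLR3A in the first only and BRF1 in the second only. Of the 9 vehicle regions, 5 overlapped an R5020 PR region, a share of 55.6% (95% Wilson interval 26.7 to 81.1%), and over the whole list the share was 91.6%. The 4 others were the region at the POLR3A start, 2 of the 3 at MAF1 and the one beside BDP1.

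POLR3A showed the contrast most plainly. Its vehicle PR region covered the gene start (chr10:78029485-78029745) with a fold of 2.84 and a -log10 q of 2.98, and no R5020 PR region overlapped it. The R5020 list had 9 regions, and the strongest lay 5488 bp beyond the far end of the gene (chr10:77968967-77969661), with a fold of 36.5 and a -log10 q of 358. Maf1, POLR3G and H3K27Ac regions of the R5020 lists overlapped it, and none of the vehicle lists did. A second region of this kind stood 2388 bp beyond the same end with a PR fold of 23.8. Among the 18091 genes with an R5020 PR region, 8.57% had a best -log10 q at or above that of POLR3A, where the median was 101.

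POLR3B, the second large subunit, had its best R5020 PR region over the start itself (chr12:106357636-106358739), with a fold of 18.5 and a -log10 q of 95.3. The vehicle region inside it had a fold of 3.39. Its 1 Maf1 region, 1 POLR3G region and 1 H3K27Ac region with R5020 all lay on that same stretch, and the other 6 R5020 PR regions overlapped no region of another antibody. POLR3C had weaker PR, with a best fold of 3.91 with vehicle and 5.22 with R5020, both at its start, which lies 105 bp from the gene RNF115.

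The paired isoforms POLR3G and POLR3GL, which replace each other in the polymerase, each had 1 vehicle PR region near an end, with folds of 3.09 and 3.35. At POLR3G the strongest R5020 region, fold 18.1, lay inside the gene and overlapped no acetylated region. A weaker one with a fold of 6.88 lay over the end that overlaps MBLAC2. At POLR3GL the best of 8 R5020 regions had a fold of 8.36 and lay 7145 bp beyond the gene, and the 2 near the start had folds of 3.08 and 2.99.

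MAF1 had 3 PR regions in each list. The vehicle folds were 2.93, 2.64 and 2.62, all within 1 kb of the lower end of the gene. The R5020 folds were 16.5, 6.06 and 2.85, and the strongest (chr8:144102867-144103237) lay 1224 bp away over SHARPIN, which ends 688 bp from MAF1.

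Among the members, BRF1, BRF2 and BDP1 held the largest numbers of R5020 PR regions. The median over all protein-coding genes with such a region was 5. Counts were not adjusted for gene length, and BDP1 spans 122.6 kb. BRF1 went from 0 to 23 regions, the best with a fold of 31.4 and a -log10 q of 276, over a gene of 106.3 kb that overlaps PACS2 and BTBD6. BRF2 went from 0 to 11, of which 4 lay over the gene, and the best, fold 34.2 (chr8:37836595-37837260), lay 6008 bp outside the gene over ADGRA2. BDP1 went from 1 to 11, and its best region (chr5:71483833-71484422) had the highest fold of any member, 37.9, and lay 28182 bp inside the gene. Only 2 of the 11 BDP1 regions overlapped another antibody's region, and both were near MCCC2, a neighbour, rather than over BDP1. GTF3C1 had 3 R5020 regions, the best with a fold of 16.8 over KATNIP, and none overlapped H3K27Ac.

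Over all members, 54.9% of the 82 R5020 PR regions overlapped R5020 H3K27Ac (44.1 to 65.2%), against 34.2% of PR regions near any protein-coding gene. The overlap with vehicle H3K27Ac was 45.1%, against 30.7%. Overlap with R5020 Maf1 was 23.2% (15.4 to 33.4%), against 12.1%. BRF1 alone supplied 23 of the 82 regions, and regions beside each other are not independent.

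**Figure D3:**
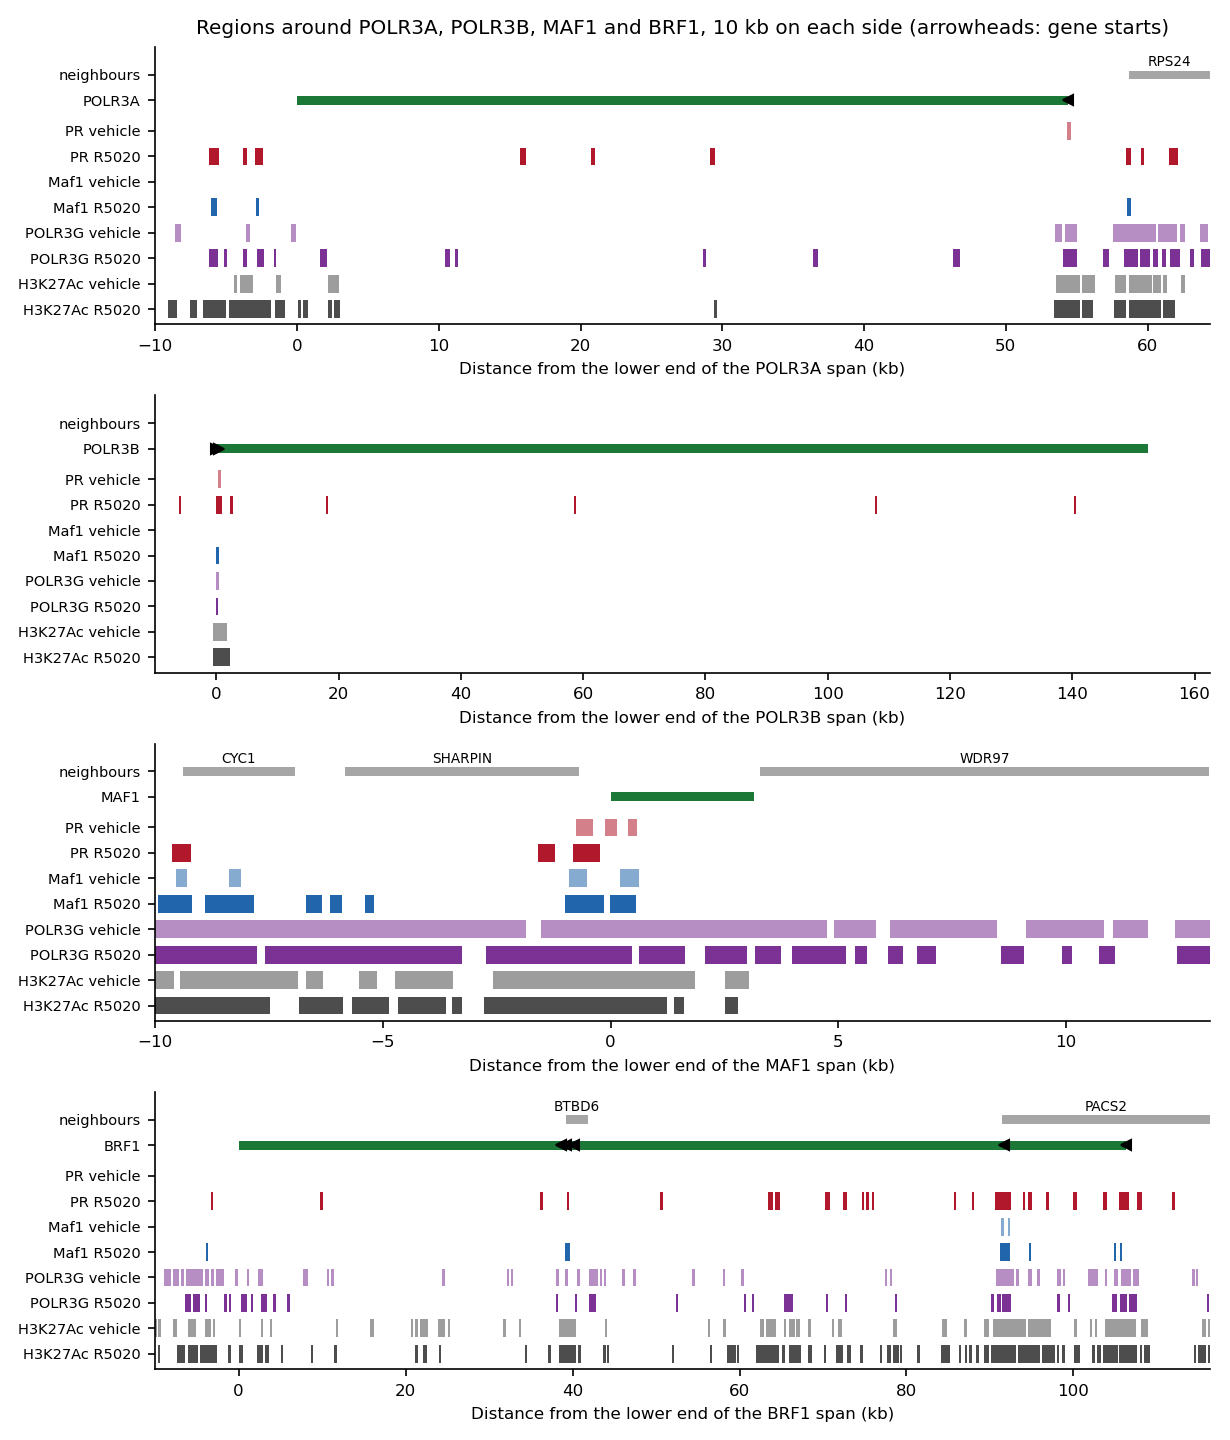
Regions of PR, Maf1, POLR3G and H3K27Ac (rows, vehicle pale and R5020 dark) around POLR3A, POLR3B, MAF1 and BRF1, by distance in kb from the lower end of the gene, with the gene in green, protein-coding neighbours in grey and known starts as arrowheads; very narrow regions are drawn at a minimum width. At POLR3A the vehicle PR region stands at the start and the strong R5020 regions beyond the far end, and at POLR3B all 4 antibodies meet at the start.

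Maf1 was present at 4 of the 10 genes with vehicle, POLR3C, MAF1, BRF1 and BRF2, against 15.9% of all genes. With R5020 it was present at 9, all but GTF3C1, against 54.1%. The 5 genes with Maf1 only in the R5020 list were POLR3A, POLR3B, POLR3G, POLR3GL and BDP1, a change seen at 38.3% of all genes. The regions numbered 8 and 27, and all 8 vehicle regions overlapped an R5020 region. Within 1 kb of a start, Maf1 lay at 1 of 7 genes with vehicle, BRF1, against 8.71%, and at 3 with R5020, POLR3B, POLR3C and BRF1, against 36.5%.

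Maf1 lay over its own gene with 1 region in each list, with a fold of 3.4 with vehicle and 4.98 with R5020. Within 10 kb of MAF1 the vehicle list had 4 regions with folds of 4.01, 3.55, 3.51 and 3.4, and the R5020 list had 7. The other regions lay over the neighbours CYC1 or SHARPIN or between them. The best R5020 region, fold 7.86 (chr8:144103468-144104318), lay over SHARPIN, 143 bp from MAF1. Regions of PR from both lists overlapped this best region. The strongest Maf1 region of the members in each list was at BRF1, by the internal start and over an end of PACS2. The vehicle region, fold 6.38, stopped 31 bp from that start, and the R5020 region, fold 11.6, covered it. In the R5020 list BRF2 came next with 9.75, ahead of MAF1, and POLR3A had 7.48. The BRF2 and POLR3A regions both lay on the distal PR regions described above. At POLR3A, POLR3GL and BDP1 every Maf1 region lay outside the gene, with best folds of 7.48, 2.28 and 3.91. Counting the gene span alone, R5020 Maf1 was at 6 genes.

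Every one of the 27 R5020 Maf1 regions overlapped R5020 H3K27Ac, where 81.3% of Maf1 regions near any gene did. Of the 27, 70.4% overlapped R5020 PR (51.5 to 84.1%), against 83.2% near any gene. The 8 R5020 Maf1 regions without PR comprised 5 at MAF1, 2 at BRF1 and 1 at POLR3GL.

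POLR3G, the isoform of stem and tumour cells, was at 9 of 10 genes in both lists, against 57.5% and 51.8% of all genes. GTF3C1 was the exception. The POLR3G lists, with 58424 and 46875 regions, were far longer than those of the other subunits. At a fold of at least 5, POLR3G was at 0 genes with vehicle and 1 with R5020. There were 99 regions with vehicle and 102 with R5020, with folds of 1.9 to 4.63 and 2.0 to 5.25. It lay within 1 kb of a start at 6 of 7 genes in both, against 48.3% and 41.5%. Within 10 kb of MAF1 some vehicle regions were broad. The best one spanned 11318 bp over CYC1 and SHARPIN and ended 1851 bp from MAF1. The one over MAF1 itself spanned 6270 bp. No region of POLR3A, Brf1 or POLR3GL accompanied POLR3G at any member.

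H3K27Ac was present at 10 of 10 genes in both lists, against 79.4% and 80.1%, and within 1 kb of the start at 7 of 7, against 69.6% and 70.6%. The strongest acetylation was within 10 kb of MAF1, with a best -log10 q of 182 with vehicle and 178 with R5020. Among the genes with a region, 0.459% and 1.02% reached these values. Both regions lay over the neighbour CYC1, 6857 and 7473 bp from MAF1. The strongest region over MAF1 itself, which also covered part of SHARPIN, had a -log10 q of 155 with vehicle and 148 with R5020. GTF3C1 was acetylated at its start, with a best fold of 14.3 with vehicle and 11.0 with R5020, although PR, Maf1 and POLR3G were absent there. With R5020, PR and Maf1 regions overlapped each other at 8 of the 10 genes, against 48.6% of all protein-coding genes. The other 5 pairs each overlapped at 9 genes, against 43.8% of all genes for PR with POLR3G, 68.7% for PR with H3K27Ac, 36.2% for Maf1 with POLR3G, 48.4% for Maf1 with H3K27Ac and 48.3% for POLR3G with H3K27Ac. When regions had to share 50% of both, PR and Maf1 met at 6 genes, against 24.3% of all genes. PR met POLR3G at 7, against 23.9%, and H3K27Ac at 4, against 27.4%. Maf1 met POLR3G at 5, against 19.1%, and H3K27Ac at 1, against 4.41%. POLR3G met H3K27Ac at 5, against 16.3%.

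The other genes of the polymerases gave a yardstick. With R5020, PR was present at 13 of 13 other polymerase III subunit genes, 12 of 12 other initiation factor genes, 12 of 12 polymerase I genes and 15 of 15 polymerase II genes. With vehicle it was present at 4, 3, 4 and 4 of them, or 25.0 to 33.3%, where the 10 members had 70.0%. That difference rests on weak regions. At a -log10 q of at least 5 the vehicle PR count was 1 of 10 members, against 2 of 13, 1 of 12, 3 of 12 and 2 of 15 in these lists and 15.7% of all protein-coding genes. Maf1 went from 8 to 12 of the 13 subunit genes, from 5 to 9 of the initiation factor genes, from 2 to 9 of the polymerase I genes and from 4 to 11 of the polymerase II genes. H3K27Ac was present at all 52 of these genes in both lists. The strongest R5020 PR regions of the lists had -log10 q values of 206 at POLR2K, 419 at GTF3C6, 367 at TAF1C and 404 at GTF2E2.

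POLR3E, a subunit gene outside the 10, was the one gene of these lists with POLR3A within 10 kb, but the strongest region there lay over a transfer RNA gene, TRL-AAG2-4 (chr16:22297140-22297221), 188 bp outside the POLR3E span. The POLR3A fold of that region was 58.0 with vehicle and 71.4 with R5020, the highest of either POLR3A list, and the Brf1 fold was 51.5 and 81.3. POLR3C and POLR3G regions over the same transfer RNA gene had folds of 4.18 and 4.62, and of 11.4 and 13.7. A separate vehicle POLR3A region lay over POLR3E itself (chr16:22298047-22298907) with a fold of 56.9, and Brf1 lay there with folds of 37.8 and 76.8. Within 10 kb of POLR3E, PR was absent with vehicle and had a fold of 21.7 with R5020 (chr16:22297066-22298627). Brf1 or POLR3C regions of folds 3.15 to 6.71 were also found at POLR2K, POLR2L, POLR1A, POLR1G, TAF1C, POLR2A, POLR2G and GTF2A1.

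**Figure D4:**
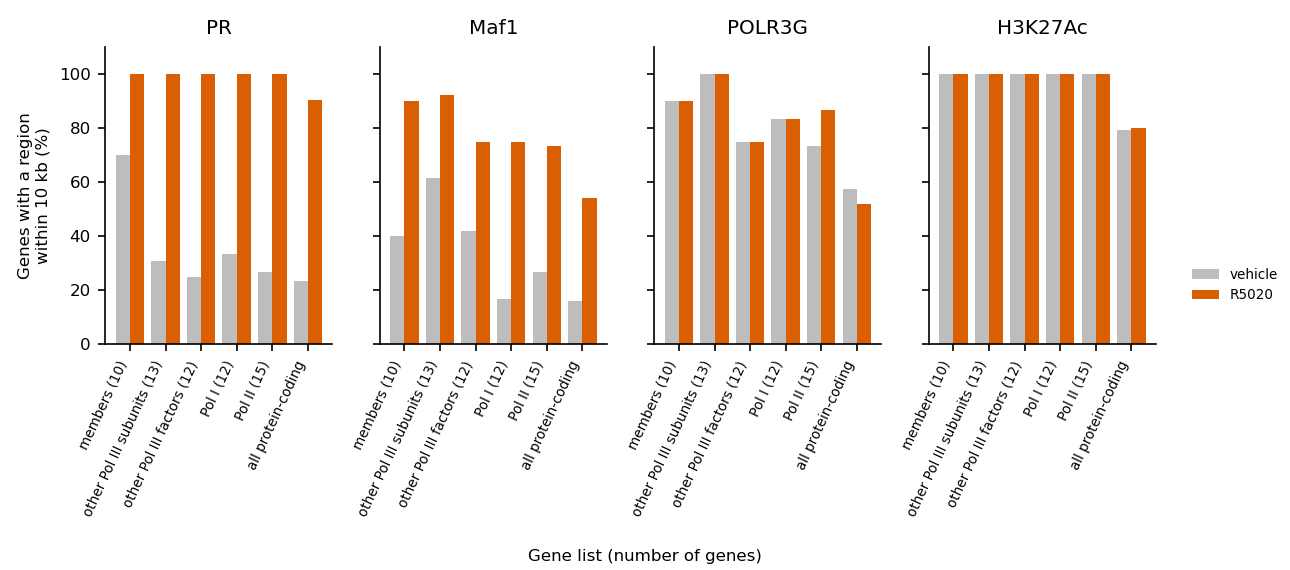
Share of genes (vertical axis, %) with a region within 10 kb in the PR, Maf1, POLR3G and H3K27Ac lists, for the 10 members, 4 lists of other polymerase genes and all protein-coding genes, with vehicle in grey and R5020 in orange. The members stand at 70.0% in the vehicle PR list, where the other lists stand at 25.0 to 33.3%, but at 10.0% once a -log10 q of at least 5 is asked for, where the others stand at 8.33 to 25.0% (not drawn). Every list of polymerase genes has all of its genes in the R5020 PR list.

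In which of the 16 lists a gene had a region, POLR3A, POLR3B, POLR3G, POLR3GL and BDP1 shared 1 pattern of presence and absence, which GTF2F1, GTF3C4, POLR1D, POLR3D and TAF1B also had. BRF1 and BRF2 shared another with 8 of the 52 other genes. GTF3C1 had that of GTF2B, GTF3C3 and POLR1E. POLR3C had that of GTF3C2, POLR2H, POLR3F, SNAPC5, TAF1D and UBTF. MAF1 differed from POLR3C and from these genes in 1 of the 16 lists. The difference came through the single weak region of the POLR3C antibody with R5020 described above, which is absent at a -log10 q of at least 5.

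Many regions cannot be told apart from those of a neighbour. A protein-coding gene lay within 10 kb of 9 of the 10 members, all but POLR3B, and BRF1, BRF2 and POLR3G overlap one. At the edge of the window, the R5020 PR region farthest from a member lay 9993 bp from POLR3GL with a fold of 4.04, and the first one outside lay 10369 bp from GTF3C1 with a fold of 31.2.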

How the data were processed

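Chromatin immunoprecipitation of 8 antibodies in T47D cells was represented by 16 deposited peak lists, each standing for 3 libraries. How the 3 were combined, and the depth, are not given in the sources used here. The tools cutadapt, Bowtie2 and MACS2 and the build hg38 are named per the submitters' processing notes. Each row of the deposited lists gives a region's fold enrichment (a ratio to the caller's background), its -log10 q-value (lowest 1.3 over all lists) and its summit position.

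Regions on the 24 chromosomes 1 to 22, X and Y were used. A region belonged to a gene when it lay within 10 kb of its RefSeq span, and regions overlapped when they shared at least 1 bp. The region described for a gene and list was the one with the highest -log10 q, with ties resolved by fold. Transfer RNA genes were taken from the same RefSeq table. Starts were known for 7 members. Shares carry 95% Wilson intervals, which cover counting error only. No test was made, since each antibody and treatment has 1 list. Named genes outside the members had a POLR3A, POLR3C, POLR3GL or Brf1 region, or a leading R5020 PR region of their list. The members and lists were chosen with earlier results of these data known. The assignment of regions to genes was tested on simulated data. Python 3.11.15, pandas 2.3.3 and scipy 1.17.1 were used.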

Additional observations from a re-analysis of the deposited data

How the results depend on the processing

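The counts of genes with a region were recomputed with other windows, thresholds and list lengths. Counting only starts within 1 kb, over 7 genes, gave 4 and 4 for PR with vehicle and R5020, 1 and 3 for Maf1, and 0 for POLR3C with R5020. A -log10 q of at least 5 left 1 gene, POLR3C, for vehicle PR and 0 for R5020 POLR3C. A fold of at least 5 left 0 for vehicle PR, 1 and 5 for Maf1 with vehicle and R5020, 0 and 1 for POLR3G, and 0 for R5020 POLR3C. Equal numbers of top regions were also taken from the 2 lists of an antibody. PR was then at 7 genes with vehicle and at 2 with R5020, POLR3A and BRF2. Maf1 was at 4 genes with vehicle and at 4 with R5020, POLR3A, MAF1, BRF1 and BRF2. For PR this setting kept the whole vehicle list and 6663 of the 173129 R5020 regions. At a -log10 q of at least 5, or a fold of at least 5, R5020 PR stayed at 10 genes. The gene span alone gave 2 for vehicle Maf1 and 0 for R5020 POLR3C, and 1 kb around it gave 0 for R5020 POLR3C. A window of 50 kb gave 1 each for R5020 POLR3A and Brf1, both at MAF1, 2 and 2 for POLR3C, and 1 and 1 for POLR3GL. Where overlapping regions had to share 50% of both, PR and H3K27Ac met at 4 genes, against 27.4% of all genes. Maf1 and POLR3G met at 5, against 19.1%, Maf1 and H3K27Ac at 1, against 4.41%, and POLR3G and H3K27Ac at 5, against 16.3%. In the vehicle PR list the 4 comparison lists, in an alternative chosen after the data were seen, gave 2, 1, 3 and 2 genes at a -log10 q of at least 5 and 0, 0, 1 and 1 at a fold of at least 5. The cause was not tested for any of these. The H3K27Ac counts stayed within 1.5 times under every setting. No paired analysis was possible because each list pools its 3 libraries, and for the same reason no library could be left out.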
